A study of Mus musculus with 6 samples.

Results

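The proteasome genes of mouse primary myoblasts were described by bulk RNA-seq in 3 WT libraries (WT1 to WT3) and 3 libraries labelled eIF5A-KO (KO1 to KO3). They are the protein-coding rows of the count table whose symbol begins with Psm, a letter from a to g and a number, and this rule found 50 of the 54532 genes listed. Coordinates below are on mm10, as in the count table. Of these genes, 43 encode the standard particle and the factors around it: 7 genes of the alpha ring, 7 of the beta ring, 6 of the ATPase ring, 11 of the non-ATPase part of the cap, 7 assembly chaperones and 5 activators or inhibitors. Psmb8, Psmb9 and Psmb10, the 3 immunoproteasome genes, were set apart. Psma8, used in the testis, and Psmb11, used in the thymus, are tissue-specific core subunits. Psme2b, a near-identical copy of Psme2, and Psmc3ip, whose product acts in meiotic recombination, match the name rule but were placed in none of these classes.

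The myoblasts came from the hind-limb muscles of 3-week-old mice and were collected on day 2 of culture, in medium with 10% fetal bovine serum and 10 ug/ml FGF. The libraries labelled eIF5A-KO were from tamoxifen-induced mice of the genotype Pax7CreERT2/+;eIF5A f/f, and the WT libraries from control littermates. The study names the controls Pax7CreERT2/+ in its text and Pax7+/+;eIF5A f/f in a figure legend, so which allele the WT cells share with the mutants cannot be told from it. Because Pax7 drives the inducible Cre, deletion is aimed at satellite cells, the muscle stem cells, and their progeny, and not at the other cells of a digested muscle. The labels do not say whether the replicates were separate animals, so p-values measure only the spread between these libraries. The comparison bears on whether libraries labelled as lacking eIF5A, a hypusine-containing translation factor, differ from WT in proteasome mRNA.

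The proteasome degrades proteins that carry chains of ubiquitin. Its core is a barrel of outer rings of alpha subunits, which gate the entrance, and inner rings of beta subunits, some of which cut peptide bonds inside the chamber. A cap on the end of the barrel binds ubiquitin, removes it and unfolds the substrate with a ring of ATPases. Under interferon, cells replace the catalytic beta subunits by Psmb8, Psmb9 and Psmb10, which changes the peptides that reach MHC class I molecules. In muscle, the proteasome turns over regulators of differentiation such as MyoD and takes part in atrophy.

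Total counts ranged from 16281216 to 17734551 per library, and 14679 genes passed the edgeR filter on low counts and were tested. All 43 standard genes and 49 of the 50 members were among them. Eif5a itself was at 1603, 986 and 1238 CPM in WT1 to WT3 and 1364, 1459 and 1059 CPM in KO1 to KO3, so the groups overlapped (log2 fold change 0.021, 95% interval -0.51 to 0.55, edgeR adjusted p = 0.993), and the direction of each difference below follows the labels alone. This count covers the whole gene and would also hold reads of a transcript that lacks only the floxed part, so it does not test the deletion. WT1 stood apart in composition, with 5.75% of its counts on mitochondrial transcripts against 2.11 to 3.50% in the others. Myoblast markers were present in every library, with a summed level of 729, 1808 and 1285 CPM (reads scaled to library size with TMM factors) in WT1 to WT3 and 1222, 884 and 679.6 CPM in KO1 to KO3. Markers of other cells were present too. The 6 endothelial markers summed to 957 to 2067 CPM in WT and 1709 to 2593 CPM in eIF5A-KO, the 6 fibroblast markers to 1723 to 2436 and 1679 to 2228 CPM, the 6 mural markers to 185 to 255 and 265 to 349 CPM, and the 13 leukocyte markers to 58.4 to 135 and 57.5 to 171 CPM. All 6 mural and all 6 endothelial markers had a positive log2 fold change in eIF5A-KO, 9 of 11 tested leukocyte markers did, and 7 of 8 myoblast markers had a negative one. The mural marker Myh11 alone among them had an adjusted p under 0.05 (0.0486, edgeR). The leukocyte marker Cd3e was at 0 in 5 of the 6 libraries. In bulk RNA, fewer cells of a type and less RNA per cell cannot be told apart, and the part of these cells in the proteasome values was not tested.

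Every standard and immunoproteasome gene had reads in every library. FPKM, a level corrected for the length of the gene and the size of the library, is used here to compare levels between genes, as the mean of the 6 libraries. In the alpha ring the level ran from 44.8 FPKM for Psma3 to 180.3 FPKM for Psma6, and in the beta ring from 32.5 FPKM for Psmb7 to 155 FPKM for Psmb5. The ATPases spanned 36.0 FPKM for Psmc2 to 135 FPKM for Psmc5, and the non-ATPase subunits 24.4 FPKM for Psmd1, a scaffold of the cap, to 114 FPKM for Psmd7. The ratio of the highest to the lowest gene was thus 4.02 in the alpha ring, 4.77 in the beta ring, 3.74 in the ATPases and 4.66 in the non-ATPase genes. Assembly chaperones, which leave the particle once it is built, were lower, from 5.41 FPKM for Psmg3 to 43.0 FPKM for Psmg4. The activators and the inhibitor ran from 7.90 FPKM for Psmf1 to 48.4 FPKM for Psme3. Among the immunoproteasome genes Psmb9 had 3.16, Psmb8 13.9 and Psmb10 19.4 FPKM. These levels divide by the gene length in the deposited table, which was 899 bases for Psmb5 and 4595 bases for Psmb1, so a gene with long annotated exons reads lower. In CPM, not divided by length, the means over 6 libraries lay closer, at 225 for Psma6 and 176 for Psma3. They were 141 for Psmb5 and 112 for Psmb7, 189 for Psmc5 and 183 for Psmc2, and 259 for Psmd7 and 179 for Psmd1. The ratios above thus rest in large part on annotated length.

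**Figure D1:**
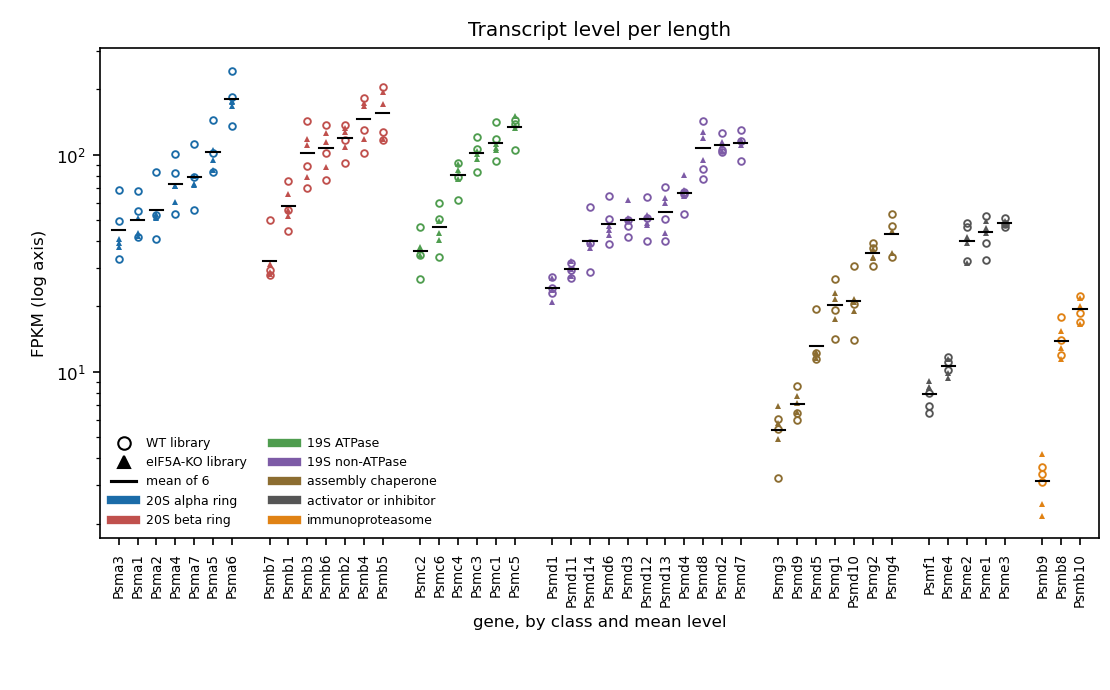
FPKM of each standard and immunoproteasome gene (log axis), with genes ordered by class and mean level on the horizontal axis; open circles are WT libraries, triangles are eIF5A-KO libraries and the line is the mean of 6. Core and cap genes lie mostly above 30 FPKM, chaperones and immunoproteasome genes mostly below, and the spread between libraries of a gene is smaller than the spread between genes of a class.

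No standard proteasome gene passed the test of a difference between the groups. Of the 43, 0 had an adjusted p under 0.05 by edgeR's quasi-likelihood test, against 3 of all 14679 tested genes (0.0204%), and the lowest adjusted p was 0.851. At an unadjusted p under 0.05, 0 were higher and 0 lower, where 2.74% of all tested genes were higher and 4.02% lower. DESeq2 and limma-voom also gave 0 at either limit. The log2 fold changes of eIF5A-KO over WT ran from -0.37 for Psma3 to 0.27 for Psmf1, with 19 positive and 24 negative and a median of -0.033, beside -0.011 over all tested genes. The 95% interval of all 43 lay within 1 log2 unit of 0, as it did for 70.7% of all tested genes. The widest bounds were -0.94 for Psma3 and 0.84 for Psmg3, so that a ratio of eIF5A-KO to WT as low as 0.52 for Psma3 and as high as 1.79 for Psmg3 lay within the intervals. Reads per gene and library ranged from 179 to 8025 in this list, and the median standard error of the log2 fold change was 0.21.

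**Figure D2:**
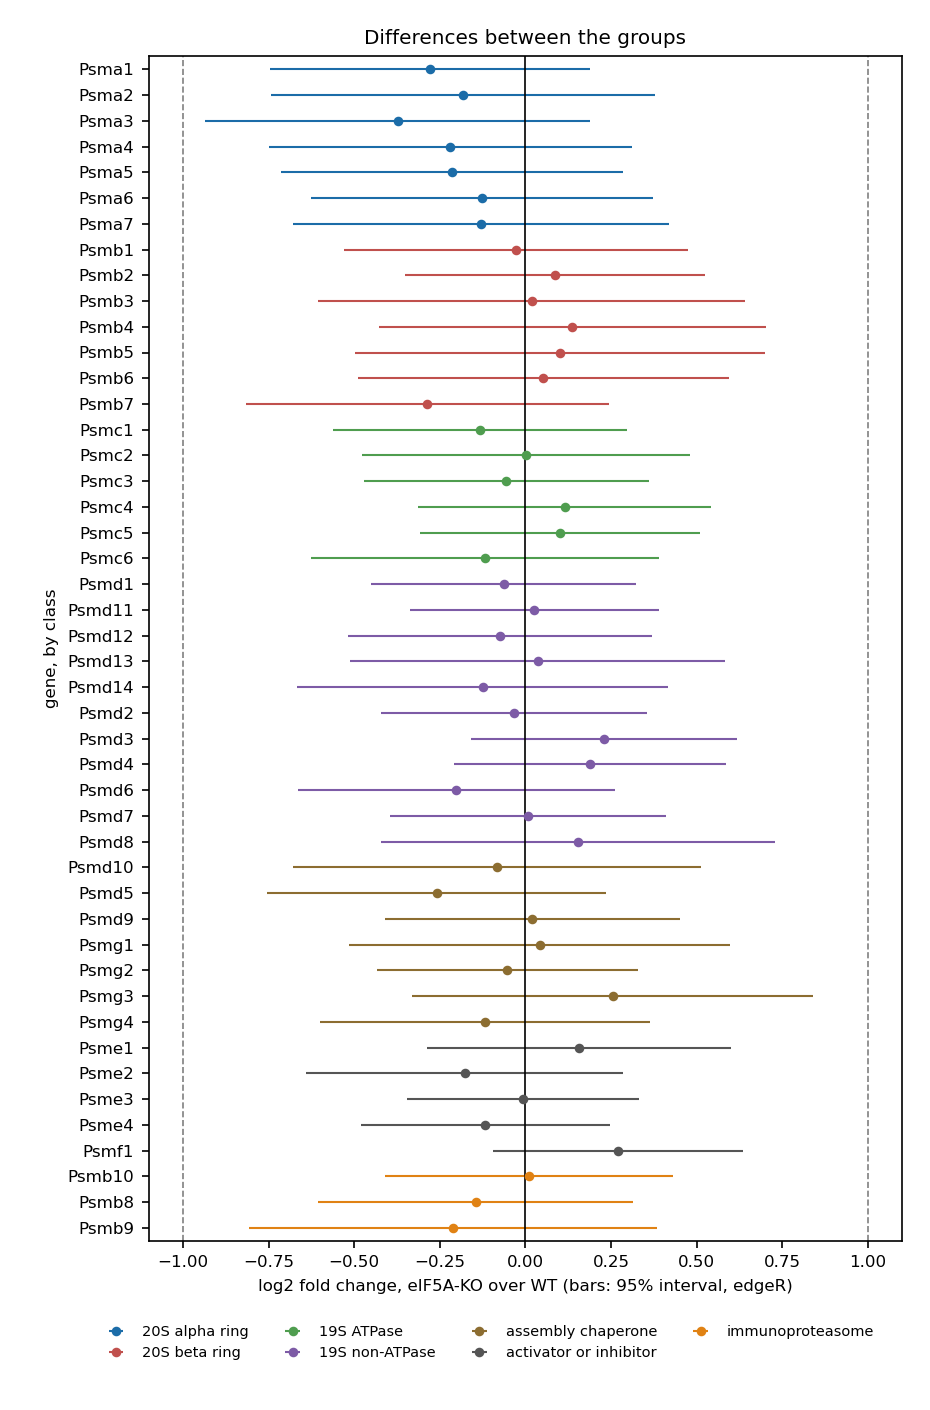
Log2 fold change of eIF5A-KO over WT for 43 standard and 3 immunoproteasome genes (points, coloured by class) with the 95% interval of the edgeR fit (bars); dashed lines mark 1 log2 unit on either side of 0. Every interval includes 0 and ends inside the dashed lines, and the 7 alpha ring genes all lie left of 0.

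The alpha ring was the class whose fold changes shared a sign. All 7 genes had a negative log2 fold change of eIF5A-KO over WT, with a median of -0.21, and 0 of 7 passed the test. Psma3 (ENSMUSG00000060073, chr12:70974621-70996347, plus strand) was at 272, 130.5 and 194 CPM in WT1 to WT3 and 147, 153 and 160.4 CPM in KO1 to KO3. The KO values lie between the lowest and the highest WT value, and WT1 is well above the rest. Its log2 fold change was -0.37 (-0.94 to 0.19; edgeR adjusted p = 0.876). Psma1 was at 204, 124 and 165 CPM in WT1 to WT3 and 125, 129 and 152 CPM in KO1 to KO3, with KO1 and KO2 near WT2, and a log2 fold change of -0.28 (-0.75 to 0.19; edgeR adjusted p = 0.888). For Psma6, the most abundant of the ring per length, values were 306, 169 and 229 CPM in WT1 to WT3 and 219, 218 and 207 CPM in KO1 to KO3. The KO libraries lay close together inside the WT range, and the log2 fold change was -0.13 (-0.63 to 0.37; edgeR adjusted p = 0.964). Psma2, Psma4, Psma5 and Psma7 had log2 fold changes of -0.18, -0.22, -0.21 and -0.13. The shared sign rested on WT1, since without that library 2 of the 7 were negative. Psma3 also has a processed pseudogene, Gm13835, that is identical to it over 685 aligned bases and held 9986 reads beside the 17785 of Psma3, so how its reads were divided is uncertain. With the reads of its copies added, Psma3 had a log2 fold change of -0.31 (edgeR adjusted p = 0.910).

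The 7 beta ring genes had 5 positive and 2 negative log2 fold changes, with a median of 0.052, and 0 passed the test. Psmb5 (ENSMUSG00000022193, chr14:54614119-54618022, minus strand), the chymotrypsin-like subunit, was at 187, 106 and 115 CPM in WT1 to WT3 and 176, 155 and 107 CPM in KO1 to KO3. WT1, KO1 and KO2 form the upper part of its range, and WT2, WT3 and KO3 the lower. The log2 fold change was 0.10 (-0.50 to 0.70; edgeR adjusted p = 0.976). Psmb6, the caspase-like subunit, split the libraries in the same way, at 259, 145 and 192 CPM in WT1 to WT3 and 238, 216 and 165 CPM in KO1 to KO3, with a log2 fold change of 0.052 (-0.49 to 0.59; edgeR adjusted p = 0.986). Psmb7, the trypsin-like subunit, was at 173, 96.2 and 101 CPM in WT1 to WT3 and 99.1, 108 and 97.0 CPM in KO1 to KO3. Here WT1 alone was high and the other 5 libraries lay between 96.2 and 108 CPM. Its log2 fold change of -0.29 (-0.82 to 0.24; edgeR adjusted p = 0.910) became 0.043 without WT1. Psmb1, Psmb2, Psmb3 and Psmb4 had log2 fold changes of -0.027, 0.086, 0.018 and 0.14. Psmb5 has a pseudogene, Gm3375, 98.9% identical over 796 bases, with 4404 reads beside the 14213 of Psmb5, and with copies added the log2 fold change of Psmb5 was 0.024. Psmb7 shares 255 bases with Nek6 on the opposite strand, and the library kit does not mark the strand, so reads there cannot be assigned to either.

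In the cap, log2 fold changes ran from -0.20 for Psmd6 to 0.23 for Psmd3. The 6 ATPase genes, whose products thread the substrate into the core, had log2 fold changes from -0.13 to 0.11, with 3 positive and 3 negative. Psmc2 was at 236, 137 and 175 CPM in WT1 to WT3 and 176, 189 and 184 CPM in KO1 to KO3, a log2 fold change of 0.0023 (-0.48 to 0.48; edgeR adjusted p = 0.999). Psmc5 was at 205, 147 and 195 CPM in WT1 to WT3 and 211, 192 and 185 CPM in KO1 to KO3, with WT2 well below the other 5 libraries, and a log2 fold change of 0.10 (-0.31 to 0.51; edgeR adjusted p = 0.966). Psmc1, Psmc3, Psmc4 and Psmc6 had -0.13, -0.055, 0.11 and -0.12. Of the 11 non-ATPase genes, 6 had a positive and 5 a negative log2 fold change, with a median of 0.0074. Psmd3 (ENSMUSG00000017221, chr11:98682554-98695979, plus strand), a subunit of the lid, was at 236, 209 and 249 CPM in WT1 to WT3 and 310.4, 254 and 250.3 CPM in KO1 to KO3. All KO values lay above all WT values, narrowly for KO3 against WT3, and KO1 was well above the other libraries. The log2 fold change was 0.23 (-0.16 to 0.62; edgeR adjusted p = 0.888). Psmd1 was at 202, 178 and 169 CPM in WT1 to WT3 and 153, 174 and 198 CPM in KO1 to KO3 (log2 fold change -0.064, edgeR adjusted p = 0.976), and Psmd7 at 299.7, 213 and 264 CPM in WT1 to WT3 and 253, 264 and 263 CPM in KO1 to KO3 (log2 fold change 0.0074, edgeR adjusted p = 0.996). In both genes the groups overlapped.

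The ubiquitin receptor Psmd4 and the deubiquitinase Psmd14 had log2 fold changes of 0.19 and -0.13. Psmd2 and Psmd8 had -0.033 and 0.15, and Psmd6, Psmd11, Psmd12 and Psmd13 had -0.20, 0.026, -0.075 and 0.036. Psmd2, the other scaffold of the cap, had the most reads of any member in 1 library, 8025 in WT1. Of the chaperones, Psmg1 to Psmg4 help to build the alpha ring, and Psmd5, Psmd9 and Psmd10 the base of the cap. They had 3 positive and 4 negative log2 fold changes, with a median of -0.053. Psmg3 was at 17.9, 9.49 and 15.8 CPM in WT1 to WT3 and 20.3, 17.0 and 14.3 CPM in KO1 to KO3, a log2 fold change of 0.26 (-0.33 to 0.84; edgeR adjusted p = 0.927), with WT2 far below the others. Psmg4 was at 30.1, 18.9 and 26.2 CPM in WT1 to WT3 and 25.0, 24.6 and 19.7 CPM in KO1 to KO3, a log2 fold change of -0.12 (-0.60 to 0.37; edgeR adjusted p = 0.966). Psmg1 and Psmg2 had 0.041 and -0.053, and Psmd5, Psmd9 and Psmd10 had -0.26, 0.020 and -0.083.

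The activators open the gate of the core without ubiquitin, and Psmf1 was named for inhibiting it in the test tube. Psmf1 had the smallest p of the standard genes. The gene (ENSMUSG00000032869, chr2:151715812-151744186, minus strand) was at 45.6, 42.2 and 51.8 CPM in WT1 to WT3 and 58.9, 54.9 and 54.5 CPM in KO1 to KO3, so all KO libraries were above all WT libraries, KO3 and WT3 being the nearest. Its log2 fold change was 0.27 (-0.10 to 0.64; edgeR adjusted p = 0.851). Psmf1 and Psmd3 were the 2 of 43 genes with all KO values above all WT values, and 0 had all KO values below, where 5.68% and 6.83% of all tested genes did. Psme1 and Psme2, which form the interferon-inducible cap, had log2 fold changes of opposite sign, neither past the test. Psme1 was at 87.9, 73.4 and 116 CPM in WT1 to WT3 and 103, 97.1 and 109.7 CPM in KO1 to KO3 (log2 fold change 0.16, edgeR adjusted p = 0.947), highest in WT3 and KO3. Psme2 was at 86.5, 57.4 and 82.8 CPM in WT1 to WT3 and 56.7, 69.4 and 74.4 CPM in KO1 to KO3 (log2 fold change -0.18, edgeR adjusted p = 0.940), highest in WT1 and WT3. Psme3, the nuclear activator, was the steadiest standard gene, at 139, 143 and 151 CPM in WT1 to WT3 and 143, 141 and 147 CPM in KO1 to KO3, with a standard deviation of 0.045 log2 units over the 6 libraries and a log2 fold change of -0.0074 (-0.35 to 0.33). Psme4, the large activator of the testis and of damaged cells, was at 87.2, 99.3 and 94.1 CPM in WT1 to WT3 and 79.2, 83.1 and 96.5 CPM in KO1 to KO3, a log2 fold change of -0.12 (-0.48 to 0.25; edgeR adjusted p = 0.949).

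The 1 of 49 tested members with an unadjusted p under 0.05, a limit that 6.76% of all tested genes passed, was Psme2b, which lies outside the standard list. The gene (ENSMUSG00000078153, chr11:48945354-48946190, minus strand) was at 41.8, 25.9 and 46.6 CPM in WT1 to WT3 and 24.5, 19.5 and 27.2 CPM in KO1 to KO3, so that WT2 overlapped the upper KO value, with a log2 fold change of -0.68 (-1.23 to -0.13; edgeR adjusted p = 0.585). Leaving out each library in turn gave -0.90 to -0.51, and its unadjusted p was no longer under 0.05 without WT3 or without KO2. Psme2b is 99.4% identical to Psme2 over 794 bases, and the split of reads between the pair is uncertain. With reads of copies added to Psme2, the log2 fold change was -0.33 (edgeR adjusted p = 0.862). Psmc3ip was at 15.2, 8.96 and 12.6 CPM in WT1 to WT3 and 7.53, 9.47 and 9.30 CPM in KO1 to KO3, with KO1 below all WT libraries and KO2 and KO3 just above WT2, and a log2 fold change of -0.48 (-1.03 to 0.067; edgeR adjusted p = 0.807). It overlaps Mlx on the opposite strand, which held 3983 reads beside its 1064. Neither tissue-specific core gene reached a level comparable to the standard rings. Psma8 had 7, 8 and 10 reads in WT1 to WT3 and 15, 1 and 11 in KO1 to KO3 (log2 fold change 0.12, -1.44 to 1.69), and Psmb11 had 1 read in WT2 and 0 in the other 5 libraries and was not tested.

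The variation that the standard genes shared lay between WT libraries. Each gene's log2 CPM was centred on its own mean over the 6 libraries. The median of the 43 genes was then 0.37 in WT1, -0.35 in WT2, 0.013 in WT3, -0.012 in KO1, 0.026 in KO2 and -0.073 in KO3, where the median of all tested genes was 0.0060 to 0.016. WT1 was the highest library for 34 of the 43 genes, as for 27.4% of all tested genes, and WT2 the lowest for 39, as for 22.2%. Both held for 32 of the 43 and for 10.8% of all tested genes. Summed over the alpha ring, the levels were 1875, 987 and 1357 CPM in WT1 to WT3 and 1181, 1255 and 1217 CPM in KO1 to KO3. Their standard deviation was thus 446 CPM over the WT libraries and 37.1 CPM over the KO libraries. For the ATPases the sums were 1456, 941 and 1229 CPM in WT and 1211, 1198 and 1167 CPM in eIF5A-KO, with standard deviations of 258 and 22.2 CPM. The gap was smaller for the beta ring, at 415 CPM in WT and 220 CPM in eIF5A-KO, and for the activators and inhibitor, at 40.9 and 23.1 CPM. The difference in spread between the groups was not tested.

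**Figure D3:**
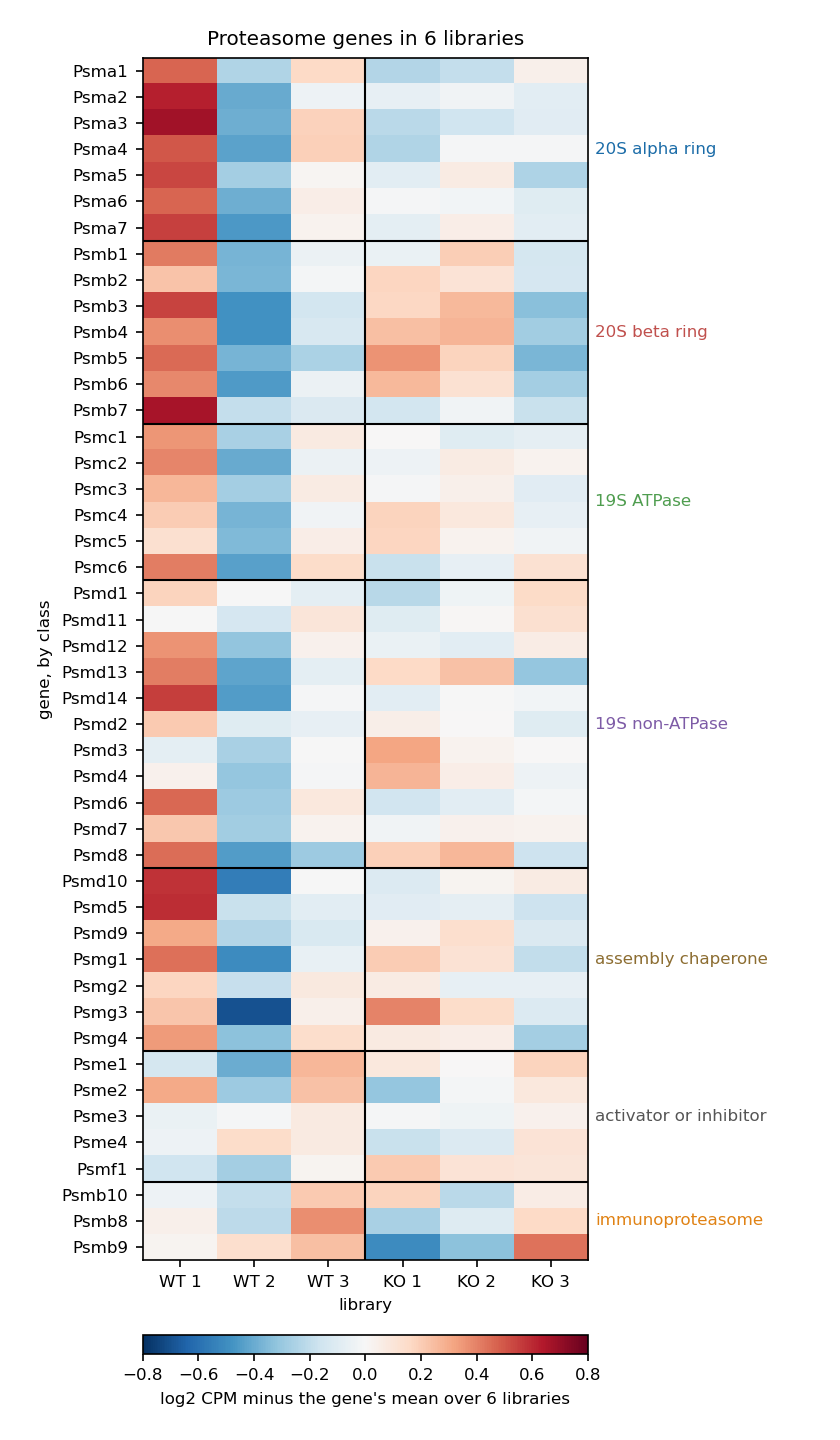
Log2 CPM of 43 standard and 3 immunoproteasome genes (rows, by class) in 6 libraries (columns), each minus the gene's mean; red is above the mean and blue below. WT1 is red and WT2 blue in nearly all core, ATPase and chaperone rows, while activators and immunoproteasome genes follow the pattern less.

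The classes followed this pattern unequally. In WT1 the class medians were 0.53 for the alpha ring, 0.41 for the beta ring, 0.34 for the chaperones, 0.31 for the ATPases, 0.22 for the non-ATPase genes and -0.051 for the activators and the inhibitor. The beta ring also separated the KO libraries, with 0.17 in KO1, 0.18 in KO2 and -0.27 in KO3, where the alpha ring had -0.087, -0.022 and -0.084. Each gene was correlated over the 6 libraries with the median profile of the other 42 (Pearson's r, given as a description, since the genes share the libraries and their depth). The median r was 0.87, against 0.0058 for all tested genes, and 15 of 43 were over 0.9, as were 4.57% of the 14660 tested genes with reads in every library. Psma7 (r = 0.99), Psma6 (0.99) and Psmd14 (0.98) were the most alike. At the other end were Psme4 (-0.50), Psme3 (-0.35), Psmf1 (0.13), Psme1 (0.25), Psmd3 (0.27), Psmd1 (0.32) and Psmd11 (0.32). The likeness rested on WT1 and WT2, the extremes of the median profile, so a lower r without them was built in. Over the other 4 libraries the median r was 0.30, with 4 of 43 over 0.9 and 15 below 0. No such value was computed over all tested genes. The median standard deviation over 6 libraries was 0.26 log2 units for the 43 genes and 0.26 for the 9697 genes with at least 10 CPM.

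The WT libraries at either end also set the sign of the comparison. Without WT1, 38 of the 43 log2 fold changes were positive, with a median of 0.13, and without WT2, 38 were negative, with a median of -0.16. An unadjusted p under 0.05 was reached by Psmd8, which was higher, without WT1, where 4.72% of all tested genes were higher at that limit. Without WT2 it was reached by Psma1, Psma3 and Psma4, which were lower, where 4.84% of all tested genes were lower, and the adjusted p stayed at or above 0.05 for all 43 in each of these fits. WT1, with the highest proteasome levels, had the highest mitochondrial share, the highest sum of the 6 fibroblast markers (2436 CPM), of which Dcn held 1542 CPM, and the lowest endothelial (957 CPM) and mural (185 CPM) sums. Without Dcn the fibroblast sum was 893 CPM in WT1 and 886 to 1237 CPM in the other libraries, with WT2 the highest. Of the 6 markers, Dcn and Lum were highest in WT1, Col1a1 and Col3a1 were lowest there, and Pdgfra and Thy1 were neither. WT2, with the lowest proteasome levels, had the highest myoblast sum (1808 CPM). The part of these values in the pattern was not tested.

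**Figure D4:**
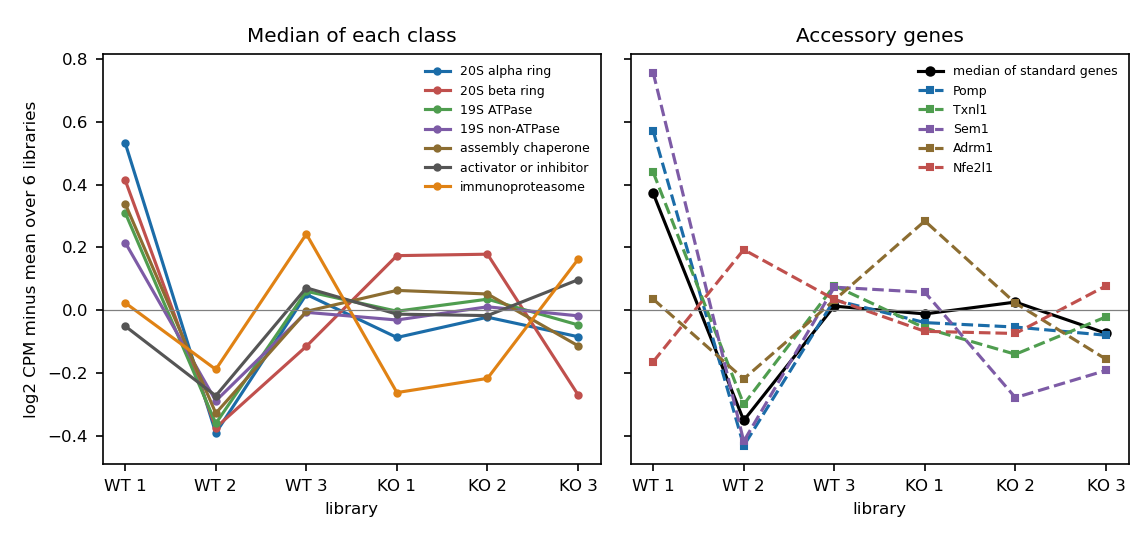
Left, median centred log2 CPM of each class by library; right, the same for the median of the 43 standard genes and for 5 accessory genes (lines only join the points of a class or gene). Most classes peak in WT1 and dip in WT2, Pomp follows the standard genes, and Nfe2l1 is highest where they are lowest.

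Genes that build, steer or feed the proteasome but are not named Psm gave no call either. Of 28 such genes, 27 were found and tested, with 14 positive and 13 negative log2 fold changes, a median of 0.0011 and 0 with an unadjusted p under 0.05, where 6.76% of all tested genes had one. Pomp, the chaperone under which the beta ring is assembled, was at 209, 104 and 144 CPM in WT1 to WT3 and 137, 135 and 133 CPM in KO1 to KO3. It followed the standard genes closely (r = 0.99 over 6 libraries), and its log2 fold change was -0.17 (edgeR adjusted p = 0.949). Adrm1, a ubiquitin receptor of the cap, was at 146, 123 and 146 CPM in WT1 to WT3 and 174, 145 and 128 CPM in KO1 to KO3, a log2 fold change of 0.11 (edgeR adjusted p = 0.961). Nfe2l1, the transcription factor that raises proteasome genes when proteasome activity is low, was at 235, 301 and 269 CPM in WT1 to WT3 and 251, 250.0 and 278 CPM in KO1 to KO3. Its mRNA was lowest in WT1 and highest in WT2, the reverse of the subunits (r = -0.92 with their median profile, where 5.85% of the 14660 genes were below -0.9), and its log2 fold change was -0.048 (edgeR adjusted p = 0.981). Over the 27 genes the median r was 0.11, with 15 positive and 12 negative, against a median of 0.0058 over the 14660 genes. Over 0.9 were 3 of the 27, namely Pomp, the cap subunit Sem1 and the cap-associated thioredoxin Txnl1, where 4.57% of the 14660 genes were. Below -0.9 were 2 of the 27, Nfe2l1 and the ubiquitin-binding shuttle Ubqln2, where 5.85% of the 14660 genes were. All but Pomp and Nfe2l1 were named after their values were seen. Nfe2l2, Akirin2 and Uba1 had all KO values above all WT values and Ube3c all below, where 5.68% and 6.83% of all tested genes did, with adjusted p in edgeR from 0.847 to 0.910.

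The immunoproteasome genes were detected in every library, and 0 of 3 passed the test. Psmb8 (ENSMUSG00000024338, chr17:34197721-34201454, plus strand) was at 39.1, 32.9 and 49.1 CPM in WT1 to WT3 and 31.7, 35.3 and 42.5 CPM in KO1 to KO3. WT3 and KO3 were the highest of their groups, and the groups overlapped (log2 fold change -0.14, -0.60 to 0.31; edgeR adjusted p = 0.949). Psmb9 (ENSMUSG00000096727, chr17:34181988-34187764, minus strand) was at 11.6, 12.5 and 13.5 CPM in WT1 to WT3 and 8.01, 9.06 and 15.4 CPM in KO1 to KO3, with KO1 and KO2 below all WT libraries and KO3 above them (log2 fold change -0.21, -0.81 to 0.39; edgeR adjusted p = 0.947). Its log2 fold change was -0.027 without KO1, -0.090 without KO2 and -0.55 without KO3, and its unadjusted p was under 0.05 in the last of these fits alone, where 3.48% of all tested genes were lower at that limit. Psmb10 (ENSMUSG00000031897, chr8:105935735-105938444, minus strand) was at 32.3, 29.2 and 38.5 CPM in WT1 to WT3 and 37.6, 28.6 and 34.6 CPM in KO1 to KO3 (log2 fold change 0.011, -0.41 to 0.43; edgeR adjusted p = 0.993). Psmb9 shares 212 bases with Tap1 on the opposite strand, which held 6811 reads beside its 1198, so part of its reads may belong to Tap1. None of the 3 followed the standard genes (r = 0.29 for Psmb8, -0.17 for Psmb9 and 0.20 for Psmb10).

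Set beside its constitutive counterpart, each immunoproteasome gene held a minor share of the FPKM of the pair. The shares depend on the lengths in the deposited table, 2736 bases for Psmb8, 899 for Psmb5, 1705 for Psmb10 and 3421 for Psmb7. In CPM, not divided by length, the means over 6 libraries were 38.5 for Psmb8 and 141 for Psmb5. They were 33.5 for Psmb10 and 112 for Psmb7, so the gap between the Psmb8 and Psmb10 shares rests on length. Reads of Psmb5, Psmb7 and Psmb9 are also uncertain, as given above. Psmb8 held 6.42, 9.28 and 12.3% of the sum of Psmb8 and Psmb5 in WT1 to WT3 and 5.59, 6.97 and 11.6% in KO1 to KO3, a mean of 9.34% ± 2.95 and 8.05% ± 3.14 (SD, n = 3 each). Psmb9 held 2.23, 4.23 and 3.46% of the sum of Psmb9 and Psmb6 in WT and 1.70, 2.10 and 4.55% in eIF5A-KO (3.31% ± 1.01 and 2.78% ± 1.55). Psmb10 held 27.3, 37.8 and 43.3% of the sum of Psmb10 and Psmb7 in WT and 43.2, 34.8 and 41.7% in eIF5A-KO (36.1% ± 8.14 and 39.9% ± 4.50). In each pair the groups overlapped, and the difference of the means was smaller than the larger standard deviation. With 3 against 3 libraries an exact two-sided permutation test cannot go below 0.10, so none was run.

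**Figure D5:**
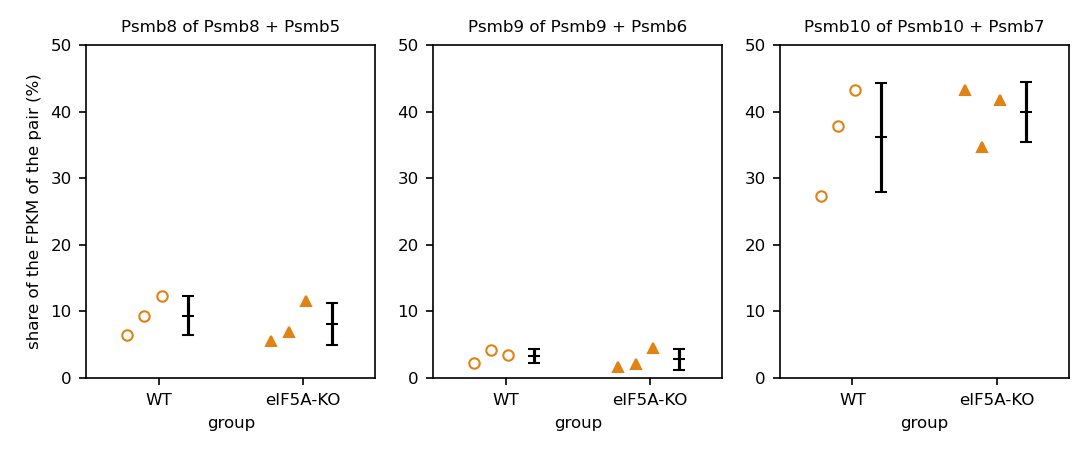
Share of each immunoproteasome gene in the summed FPKM of the gene and its constitutive counterpart (percent), by group; circles are WT libraries, triangles eIF5A-KO libraries, and bars the mean and standard deviation (n = 3). Psmb10 holds 27.3 to 43.3% of its pair, Psmb8 5.59 to 12.3% and Psmb9 1.70 to 4.55%, with overlapping groups. The shares depend on the gene lengths that FPKM divides by.

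Interferon-response genes also varied among the libraries of a group. The summed level of 12 such genes was 821, 762 and 1173 CPM in WT1 to WT3 and 501, 752 and 1483 CPM in KO1 to KO3, so that WT3 and KO3 were highest and KO1 was lowest. Psmb8 and Psmb9 were also lowest in KO1, whereas Psmb10 was at its second highest level there and lowest in KO2. Of the 11 that were tested, 0 had an unadjusted p under 0.05 between the groups, where 6.76% of all tested genes had one. The 11 had 7 positive and 4 negative log2 fold changes and a median of 0.102. The part of the interferon-response genes in the immunoproteasome values was not tested. Of 12 genes that act with the immunoproteasome in antigen presentation, such as the peptide transporter Tap1, 9 had a positive and 3 a negative log2 fold change. Their median was 0.14. Over all tested genes 7097 were positive and 7582 negative. At an unadjusted p under 0.05 there were 0 of the 12, where 6.76% of all tested genes passed. The summed level of the 12 was 3801, 4267 and 5010 CPM in WT and 4665, 4543 and 5875 CPM in eIF5A-KO.

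The 250 bases before the start site of each gene were read from RefSeq (GRCm38.p6, the assembly also called mm10), which held promoters for 42 of the 50 members. Shown are Psma7, the gene closest to the median profile, Psmb5 and Psmb6, catalytic subunits with an ARE core within 47 bases of the start site, and Psmb8 and Psmb9, which did not follow the profile. Each runs 5′ to 3′ on the strand of its gene and ends at the base before RefSeq's start site, and capitals mark matches, on either strand, to the motifs given after them.
Psma7 (chr2:180042465-180042714, minus strand): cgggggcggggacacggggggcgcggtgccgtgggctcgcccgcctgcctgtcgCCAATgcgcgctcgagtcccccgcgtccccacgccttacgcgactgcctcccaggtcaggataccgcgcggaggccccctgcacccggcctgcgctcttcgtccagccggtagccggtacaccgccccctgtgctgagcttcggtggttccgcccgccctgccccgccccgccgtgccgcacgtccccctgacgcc
Psmb5 (chr14:54617996-54618245, minus strand): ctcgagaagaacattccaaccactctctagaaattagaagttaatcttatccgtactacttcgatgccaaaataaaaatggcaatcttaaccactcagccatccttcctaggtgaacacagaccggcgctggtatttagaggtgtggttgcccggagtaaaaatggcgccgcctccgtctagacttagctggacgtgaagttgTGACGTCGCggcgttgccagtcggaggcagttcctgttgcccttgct
Psmb6 (chr11:70525107-70525356, plus strand): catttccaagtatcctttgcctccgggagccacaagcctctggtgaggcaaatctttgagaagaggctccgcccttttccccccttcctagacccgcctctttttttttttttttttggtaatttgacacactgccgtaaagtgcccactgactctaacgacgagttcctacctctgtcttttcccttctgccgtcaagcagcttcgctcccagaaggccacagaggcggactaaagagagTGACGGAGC
Psmb8 (chr17:34197945-34198194, plus strand): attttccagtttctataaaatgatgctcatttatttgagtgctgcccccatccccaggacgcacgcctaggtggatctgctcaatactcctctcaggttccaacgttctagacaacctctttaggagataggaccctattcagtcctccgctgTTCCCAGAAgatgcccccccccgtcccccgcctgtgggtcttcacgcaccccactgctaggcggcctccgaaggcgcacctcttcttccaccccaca
Psmb9 (chr17:34187331-34187580, minus strand): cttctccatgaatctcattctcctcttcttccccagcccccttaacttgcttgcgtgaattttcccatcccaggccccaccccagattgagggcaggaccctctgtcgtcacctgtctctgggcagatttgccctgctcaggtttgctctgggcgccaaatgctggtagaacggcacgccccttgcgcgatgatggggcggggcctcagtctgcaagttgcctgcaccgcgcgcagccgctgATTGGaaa

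The ARE core, TGACNNNGC, is the site bound by Nfe2l1 and Nfe2l2 with small Maf proteins. It stood in the promoters of 5 of the 36 standard genes with a promoter (Psmb5, Psmb6, Psmc6, Psmd9 and Psmd12), that is in 12.8% of their 39 promoters, against 10.2% of all 32851 promoters of the same length. In Psmb6 it covered the last 9 bases before the start site and in Psmb5 bases 47 to 39 before it. CCAAT, which nuclear factor Y binds, stood in those of 12 of the 36 genes, or 30.8% of the promoters, against 33.8% of all, and the match in Psma7 lay at bases 196 to 192 before the start site. TTCNNNGAA, the pattern of a STAT site, was found in 1 standard gene, Psmg1, and in Psmb8, at bases 97 to 89 before its start site, and in 7.02% of all promoters. GAAANNGAA, a pattern of interferon regulatory factors, was found in 3 standard genes (Psmb3, Psmd4 and Psmd9) and in 7.13% of all promoters. The capitals in Psmb9 mark CCAAT on the opposite strand. For Psmb5, Psmb8 and Psmb9 the count table places the start of the gene farther upstream than RefSeq does. The whole window of Psmb8 and that of Psmb9 (250 of 250 bases each) therefore lay inside the gene as counted, and 27 of 250 bases did for Psmb5. The motifs do not overlap in the sequences shown. A match describes these letters only, and no difference between the shares was tested.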

How the data were processed

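Bulk RNA-seq of 3 WT and 3 eIF5A-KO myoblast libraries was analysed. The authors used TRIzol for RNA extraction and an NEBNext Ultra kit, which does not mark the strand, for the libraries, and mapped reads to mm10 with HISAT (per the labels and the study's methods, version not given in the sources used here). The counts deposited are whole reads per gene, with no normalization, and DEGSeq2 is named in the methods for the coverage of genes. The FPKM values deposited by the authors divide by the gene length of the table and by a size factor times the geometric mean total, as checked against the counts. How reads that map to several places were counted is not given in the sources used here.

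Counts were fitted with edgeR 4.0.16 in R 4.3.3 (filterByExpr, TMM factors, quasi-likelihood F test, Benjamini-Hochberg adjustment over 14679 genes, threshold 0.05), without covariates, over all 6 libraries. A prior count of 2 was set only for the log2 CPM used to compare libraries of the same replicate number. CPM uses TMM factors, intervals are at 95%, and each value carries the precision of 3 libraries per group, at total counts of 16281216 to 17734551. Intervals on reads cover no PCR duplication, since no molecular identifiers were used. Alternatives were DESeq2 1.42.0 or its size factors, library size alone, no filter, scaling that leaves out mitochondrial transcripts and the 10 top genes, limma-voom and limma 3.58.1 on log2(FPKM + 1) or log2(FPKM + 0.1), a replicate block, each library left out, and reads of copies added. Copies were searched in GENCODE transcripts of GRCm38 with blastn 2.17.0 (at least 90% identity over 200 bases, added from 500 bases). The bounds of 48 of the 50 genes equalled those of GENCODE M21.

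The members and the gene lists were chosen with earlier results of these data known. Given in full are the catalytic pairs, activators and inhibitor, tissue-specific genes, name matches, the 5 standard genes with the smallest p and the highest and lowest gene of each class by FPKM. For the accessory genes these are Nfe2l1, Pomp and Adrm1. The proteins of the catalytic pairs were not used here.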

Additional observations from a re-analysis of the deposited data

How the results depend on the processing

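Under the 16 alternatives, of which the adding of reads of copies was chosen after seeing the data, the count of standard genes with an adjusted p under 0.05 was 0, as it was with DESeq2, which called 88 of all tested genes, and without the filter, where 249 were called (edgeR main value 3). Leaving out each library in turn gave 0 to 1 standard genes higher at an unadjusted p under 0.05 (1 without WT replicate 1) and 0 to 3 lower (3 without WT replicate 2), where 4.72% of all tested genes were higher and 4.84% lower in these 2 fits. For the accessory genes the count of 0 became 1 without the filter, 1 with a replicate block, and 0 to 2 on leaving out a library (2 without WT replicate 2), where 6.32%, 5.96% and 8.82% of all tested genes passed that limit without the filter, with the block and without WT replicate 2. Between libraries of the same replicate number, deviations from the group means correlated at 0.084, -0.16 and 0.11 over genes. Libraries of unlike number were not compared, so whether the numbers pair the libraries is not settled. With a replicate block 0 standard genes passed either limit. Scaling by library size alone gave 15 positive and 28 negative standard genes. Several log2 fold changes that lay near 0 changed sign, and the cause was not tested. With library size alone, Psmb10 had -0.019, Psmc2 -0.010 and Psmd7 -0.013. Psme3 had 0.0051 without the filter, 0.00059 on log2(FPKM + 1) and 0.00061 on log2(FPKM + 0.1). Psma8, at 1 to 15 reads per library, had -0.43 with limma-voom, -0.16 on log2(FPKM + 0.1) and -0.093 with the replicate block. On leaving out each library in turn the ranges were -0.27 to 0.022 for Psmb8, -0.075 to 0.13 for Psmb10, -0.049 to 0.41 for Psmb5, -0.13 to 0.30 for Psmb6, -0.44 to 0.043 for Psmb7, -0.027 to 0.029 for Psme3 and -0.49 to 0.65 for Psma8. In the same way they were -0.31 to 0.12 for Psma6, -0.030 to 0.20 for Psmc5, -0.17 to 0.24 for Psmc2, -0.11 to 0.13 for Psmd7, -0.16 to 0.033 for Psmd1 and -0.28 to 0.041 for Psmg4. Without a change of sign they were -0.60 to -0.072 for Psma3, -0.44 to -0.088 for Psma1, 0.028 to 0.45 for Psmg3, 0.015 to 0.36 for Psme1, -0.34 to -0.063 for Psme2, -0.20 to -0.050 for Psme4, 0.21 to 0.36 for Psmf1, 0.13 to 0.29 for Psmd3, -0.55 to -0.027 for Psmb9, -0.90 to -0.51 for Psme2b and -0.66 to -0.29 for Psmc3ip, whose unadjusted p was under 0.05 without WT replicate 2. With 1 library left out, a group holds 2 libraries and the spread is shared across groups. The 3 libraries per group and a median standard error of 0.21 limit what can be told of smaller differences, and reads of 14 genes with near-identical copies depend on how they were assigned.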
